A study of Solanum lycopersicum with 14 samples.

Results

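Fruit of 2 tomato genotypes, red-fruited M82 and yellow-fruited n3122, was compared at 35 DPA, which in this field stands for days post anthesis, the age since flowering. M82 carried the wild-type genotype and n3122 was a mutant in the M82 background. The labels name no mutated gene, and both genotypes grew in a greenhouse with no treatment named. RNA came from the pericarp, which is the flesh of the fruit around the seeds, and each genotype gave 2 libraries at 35 DPA, of 14 libraries in the series. The genes described are the 18601, of 34725 in the table, that reached 1 FPKM (fragment number scaled to transcript length and library size) in M82 or in n3122. Each level is the authors' single FPKM for both libraries of a group together, so no SD stands beside it. The fold change is log2((n3122 + 1)/(M82 + 1)), positive where n3122 was higher, and a gene is said to be called where its q-value in the authors' deposited table was at or under 0.05.

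Tomato fruit first grows as a green organ whose chloroplasts absorb light through chlorophyll-binding antenna proteins and fix carbon in the Calvin cycle. When growth ends, the fruit begins to make ethylene in large amounts. Ethylene binds receptors that otherwise keep the kinase CTR1 active; once the receptors are silenced, the membrane protein EIN2 passes the signal to transcription factors of the EIN3 type, which EBF proteins mark for destruction. Ripening then replaces chloroplasts by carotenoid-storing chromoplasts, softens the cell wall and starts flavour synthesis.

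Ripening markers were low at 35 DPA in some cases and not in others. RIN, a MADS-box factor that drives ripening, had 2.26 FPKM in M82 and 2.66 in n3122 at 35 DPA, whereas M82 fruit of 47 DPA had 733. PG2A, the fruit polygalacturonase that digests pectin, had 1.63 and 0.306 FPKM, against 3598 in M82 at 47 DPA. E8 and ACO1, which ripening raises further, were already at 100.3 and 287 FPKM in M82, against 5258 and 2657 in M82 at 47 DPA. Levels set across ages come from tables that were scaled separately. TAGL1 and FUL2, MADS-box factors of the fruit wall, were abundant in both genotypes, with 150 FPKM in M82 and 146 in n3122 for TAGL1 and 140 and 134 for FUL2. None of the 7 listed seed storage genes reached 1 FPKM, and their levels summed to 1.6 FPKM in M82 and 1.1 in n3122.

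EIN2 (Solyc09g007870, on chromosome 9) was the most reduced of all listed genes. It had 48.9 FPKM in M82 and 3.75 in n3122, a log2 fold change of -3.39. In the authors' deposited table its q-value was 0.00325, the smallest value there, which 284 called genes held. The genes beside EIN2 did not share the difference. Of the 10 identifiers on each side, 12 reached 1 FPKM and none was called. Their log2 fold changes ran from -0.42 to 1.40 with a median of 0.03. The highest of these belonged to the next identifier after EIN2, at 6.01 FPKM in M82 against 17.44 in n3122, and in the authors' deposited table its q-value was 0.790.

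Of the 16 listed genes of ethylene perception and signalling, all above 1 FPKM, 3 were called lower and none higher, where 1.35% of the 18280 genes tested were called lower. The list's median log2 fold change was -0.17, beside -0.01 over all 18601 genes. Besides EIN2 these were EBF1 (Solyc12g009560), at 37.0 FPKM in M82 against 17.63 in n3122, and the receptor gene ETR6 (Solyc09g089610), with 9.83 and 3.98 FPKM. Their log2 fold changes were -1.03 and -1.12. The other components were close to level between genotypes. The 13 genes not called lay between -0.37 and 0.28, among them the receptor ETR1 at 23.9 FPKM in both genotypes, the kinase CTR1 at 16.4 and 14.2 FPKM, and EIL1, an EIN3-type factor, at 79.7 and 77.1 FPKM.

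Among genes of ethylene synthesis, 2 of the 10 above 1 FPKM were called lower and none higher, where 1.35% of all tested genes were called lower. The list's median log2 fold change was -0.42. Both called genes encode ACC oxidases, the enzymes of the last step: ACO6 (Solyc02g036350) had 135 FPKM in M82 and 83.1 in n3122, and ACO5 (Solyc07g026650) 10.5 and 4.12. The most abundant ACC oxidase gene, ACO1 (Solyc07g049530), had 287 and 194 FPKM and was not called. The ACC synthases of ripening fruit, ACS2 and ACS4, were low and nearly level, at 4.34 and 4.12 FPKM for ACS2 and 0.920 and 1.07 for ACS4. ACS6, the ACC synthase known from unripe fruit, had 34.4 and 28.3 FPKM and was not called.

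Ethylene response factors and ethylene-responsive genes leaned the same way, with 12 of 13 below 0 and a median log2 fold change of -0.42. Of these, 3 were called, all lower, where 1.35% of all tested genes were called lower. E4 (Solyc03g111720), a ripening gene that ethylene induces, had 112 FPKM in M82 and 22.6 in n3122, a log2 fold change of -2.26. The response factor genes ERF.F1 (Solyc10g006130) and ERF.B1 (Solyc05g052040) were called with 130 against 55.8 FPKM in n3122 and with 63.6 against 30.5. E8, another ethylene-responsive gene, had 100.3 and 73.5 FPKM and was not called. The exception to the direction was ERF.E2, the most abundant gene of the list, with 413 FPKM in M82 and 472 in n3122, not called.

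Across the whole table the genotypes were close. The middle 50% of the 18601 genes lay between -0.15 and 0.16, 87.2% lay within 0.5 of 0, and the 1st and 99th percentiles were -1.22 and 1.35. The authors' deposited table called 600 of the 18280 genes tested (3.28%), 354 higher in n3122 (1.94%) and 246 lower. Of the called genes, 156 had a log2 fold change of at least 1 and 132 of at most -1. The smallest called difference was 0.56 in size on the log2 scale, so the many smaller differences described here are not called at any level. Calls were also less frequent among low genes: 0.864% of tested genes with 1 to 3 FPKM in the higher group were called, 2.89% of those with 10 to 30, and 6.02% of those with 100 to 1000.

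**Figure D1:**
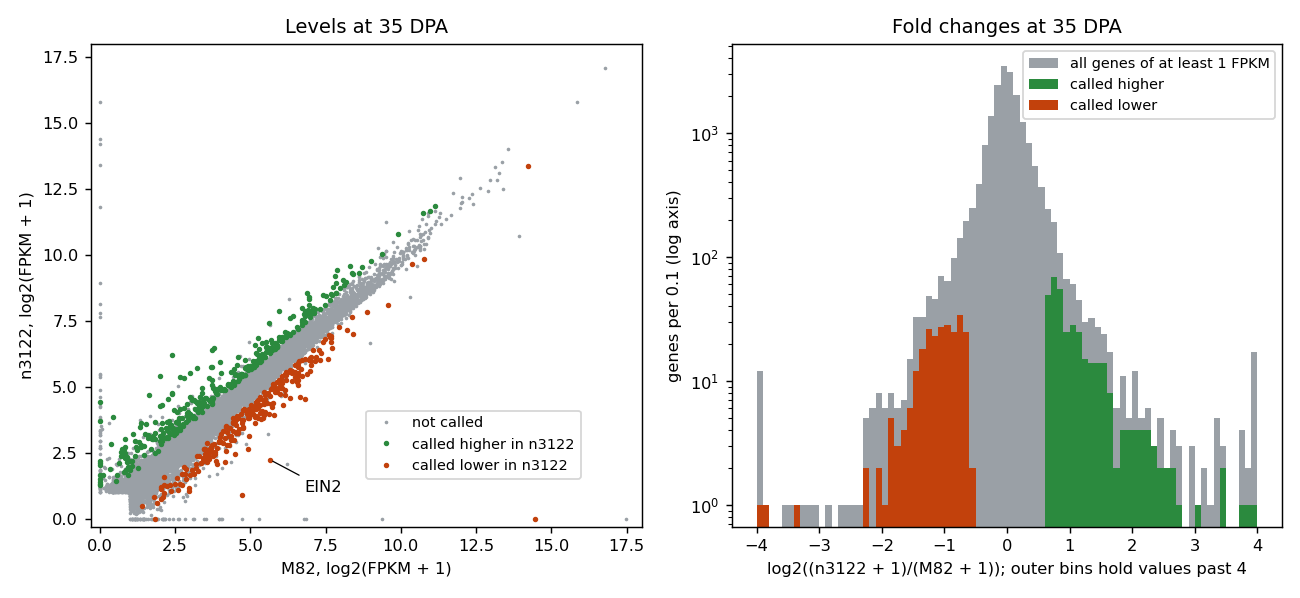
Left, each point is a gene of at least 1 FPKM in either genotype, with log2(FPKM + 1) in M82 on the x axis and in n3122 on the y axis. Right, the number of genes (log axis) by log2 fold change in bins of 0.1, the outermost bins holding all values past 4; called genes are coloured, green higher and orange lower in n3122. EIN2 lies far below the diagonal, and the colours start at 0.56 on either side of 0.

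Outside the lists, the called genes with the largest fold changes have no name in the files. Solyc11g011570 was listed at 0 in M82 and reached 20.7 FPKM in n3122, and Solyc03g111610 had 4.29 and 73.7 FPKM, a log2 fold change of 3.82. In the other direction, Solyc07g062480 had 25.6 FPKM in M82 and 0.873 in n3122, a log2 fold change of -3.83. Solyc08g013950 had 22505 FPKM in M82 and a listed value of 0 in n3122. Values of exactly 0 may stand for an estimate that failed, and no fold is given against it. The gene with the highest level in M82, Solyc02g068870, was listed at 183219 FPKM, 12.9% of the M82 total, and at 0 in n3122, and its q-value in the authors' deposited table was 0.522. The highest level in n3122 was 140594 FPKM for Solyc12g077460, which had 113983 in M82 and was not called.

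Photosynthesis held 40 of the 67 listed genes that were called. In the lists of antenna proteins, photosystem subunits with electron transport, Calvin cycle and chlorophyll synthesis, all 73 genes above 1 FPKM had a positive log2 fold change, from 0.11 to 1.96 with a median of 0.68, and the 40 called were all higher. All genes together had a median of -0.01, and 1.94% of those tested were called higher. The summed FPKM of these lists was 16205 in M82 and 26608 in n3122, a ratio of 1.64. In bulk pericarp, more cells of a type and more RNA per cell cannot be told apart. The lists hold no gene outside nuclear identifiers. Of the 73 names, 34 are held by the reference table on the same chromosome, at a place within 5% of its genes. Such a check cannot tell close neighbours apart: CAB3A and CAB3B matched the same reference name, as did LHCB6A and LHCB6B. The other names rest on general knowledge of tomato genes.

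Antenna proteins bind chlorophyll around the photosystems and pass light energy to them. Of 21 such genes above 1 FPKM, 16 were called higher, and the median log2 fold change was 1.10. The most abundant of those called were LHCB5 (Solyc06g063370), the CP26 protein of photosystem II, with 419 FPKM in M82 and 749 in n3122, CAB3A (Solyc03g005760) with 334 and 636, and CAB1H (Solyc02g071030) with 226 and 583. The largest fold change belonged to CAB5 (Solyc12g006140), with 14.9 and 60.9 FPKM (1.96 on the log2 scale). Antenna genes at 30 FPKM or more in M82 had a median log2 fold change of 0.85 over 12 genes, and those under 30 FPKM 1.28 over 9 genes, the larger median being that of the low genes.

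The antenna of photosystem II, with 16 genes, had a median of 1.27 and 14 called, and that of photosystem I, with 5 genes, a median of 0.80 and 2 called, CAB6A and LHCA4B. The difference between the photosystems was not tested. CAB7, an antenna gene of photosystem I, was the most abundant of the family, at 735 FPKM in M82 against 1130.5 in n3122. It was not called, its q-value being 0.137 in the authors' deposited table. CAB8, LHCB6A, CAB3D and LHCA4A were likewise not called, with log2 fold changes from 0.23 to 0.80. Some antenna genes lie side by side. On chromosome 2, 6 consecutive expressed genes from CAB1B to CAB1 were called higher with log2 fold changes from 1.10 to 1.45, and on chromosome 3, CAB3A, CAB3B and CAB3C with 0.93 to 1.53. These neighbours are close copies, so the authors' counting could have shared reads among them, and their single values are uncertain.

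Of 22 subunit and electron transport genes, 10 were called higher, with log2 fold changes from 0.39 to 1.69 over the list and a median of 0.64. PSAH2 (Solyc12g044280), a subunit of photosystem I, had 11.5 FPKM in M82 and 39.2 in n3122. PSBS (Solyc06g060340), which protects photosystem II by turning excess light into heat, had 131 and 241 FPKM. Several uncalled genes lay close to the called ones: PSAK had 727 FPKM in M82 and a log2 fold change of 0.63, and PSAD, PSAO and PETC had 0.60, 0.59 and 0.59. The most abundant, PSBR, a subunit of photosystem II, had 2235 and 3220.2 FPKM and was not called. Plastocyanin (PETE) and a ferredoxin (SEND33), the soluble electron carriers, were both called, plastocyanin with 387 against 640.1 FPKM in n3122 and the ferredoxin with 662 against 1061.

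In the Calvin cycle, 11 of 14 genes were called higher, and the median log2 fold change was 0.90. The chloroplast aldolases had the largest differences. FBA1 (Solyc01g110360) had 61.6 FPKM in M82 and 237 in n3122 (1.93 on the log2 scale), and FBA2 (Solyc02g062340) had 47.8 and 172 (1.82). The Rubisco small subunit gene RBCS2 (Solyc03g034220), the most abundant of the list, had 1720.2 and 3107 FPKM and its q-value was 0.0415 in the authors' deposited table. RCA, the activase that keeps Rubisco working, had 269 and 536 FPKM, and SBPASE, which regenerates the acceptor of carbon dioxide, 109 and 215. PGK, FBP and TKL were not called, at 0.53 to 0.60.

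**Figure D2:**
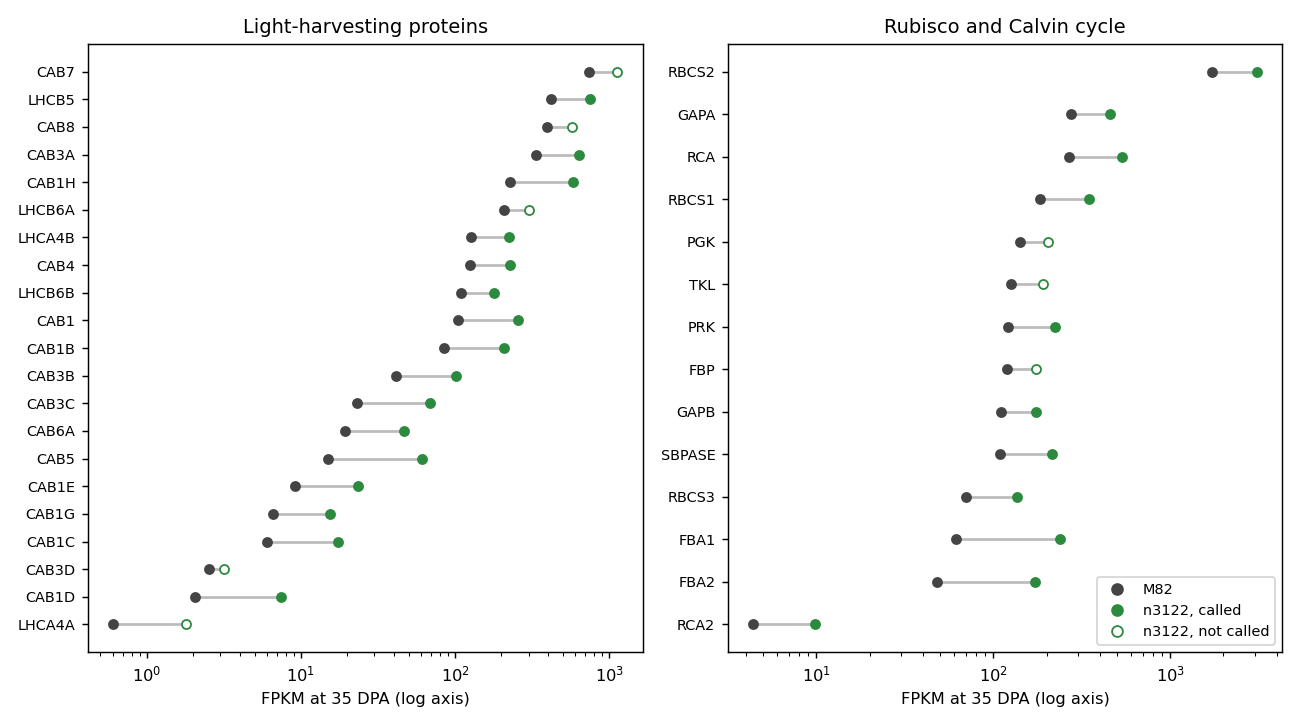
FPKM at 35 DPA on a log axis for each antenna gene (left) and Calvin cycle gene (right) of at least 1 FPKM, ordered by the level in M82; grey points are M82 and green points n3122, filled where called. Every gene lies further right in n3122, at levels from under 10 FPKM to over 1000 FPKM.

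Chlorophyll synthesis differed less. All 16 genes were above 0, with a median log2 fold change of 0.48, and 3 were called higher, none of which had a q-value at or under 0.01. CHLM and CRD1, successive enzymes after magnesium is inserted, were called with 49.6 against 82.6 FPKM in n3122 and with 95.1 against 146. CHLH, the subunit of magnesium chelatase that holds the porphyrin, had 54.7 and 84.7 FPKM. GSA, which acts before the porphyrin ring is made, and CHLG, which adds the phytol tail, were the nearest to 0, at 0.20 and 0.11. For these names the reference table gave no check, except for GSA.

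Of 12 genes of chlorophyll breakdown and of greening, 1 was called higher and 1 lower, where 1.94% and 1.35% of all tested genes were. Of the 12, 11 lay above 0, and the median was 0.38. SGR1 (Solyc08g080090), the stay-green protein that opens chlorophyll breakdown, had 77.7 FPKM in M82 and 128 in n3122 and was called higher. A gene listed as its relative (Solyc11g010500), a pairing the reference table does not hold, was called lower, with 94.5 and 54.0 FPKM. GLK2 (Solyc10g008160), the factor that promotes chloroplasts at the fruit shoulder, had 9.10 and 18.3 FPKM and missed the threshold, its q-value being 0.0852 in the authors' deposited table. APRR2, another factor of fruit greening, had 7.29 and 11.9 FPKM and was not called. Light receptors and their signalling partners were level: none of 16 genes was called, and their median was 0.06. HY5, which activates light-induced genes, had 18.6 FPKM in M82 and 15.3 in n3122, and DET1 and DDB1, repressors of that response, had log2 fold changes of 0.05 and 0.00.

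**Figure D3:**
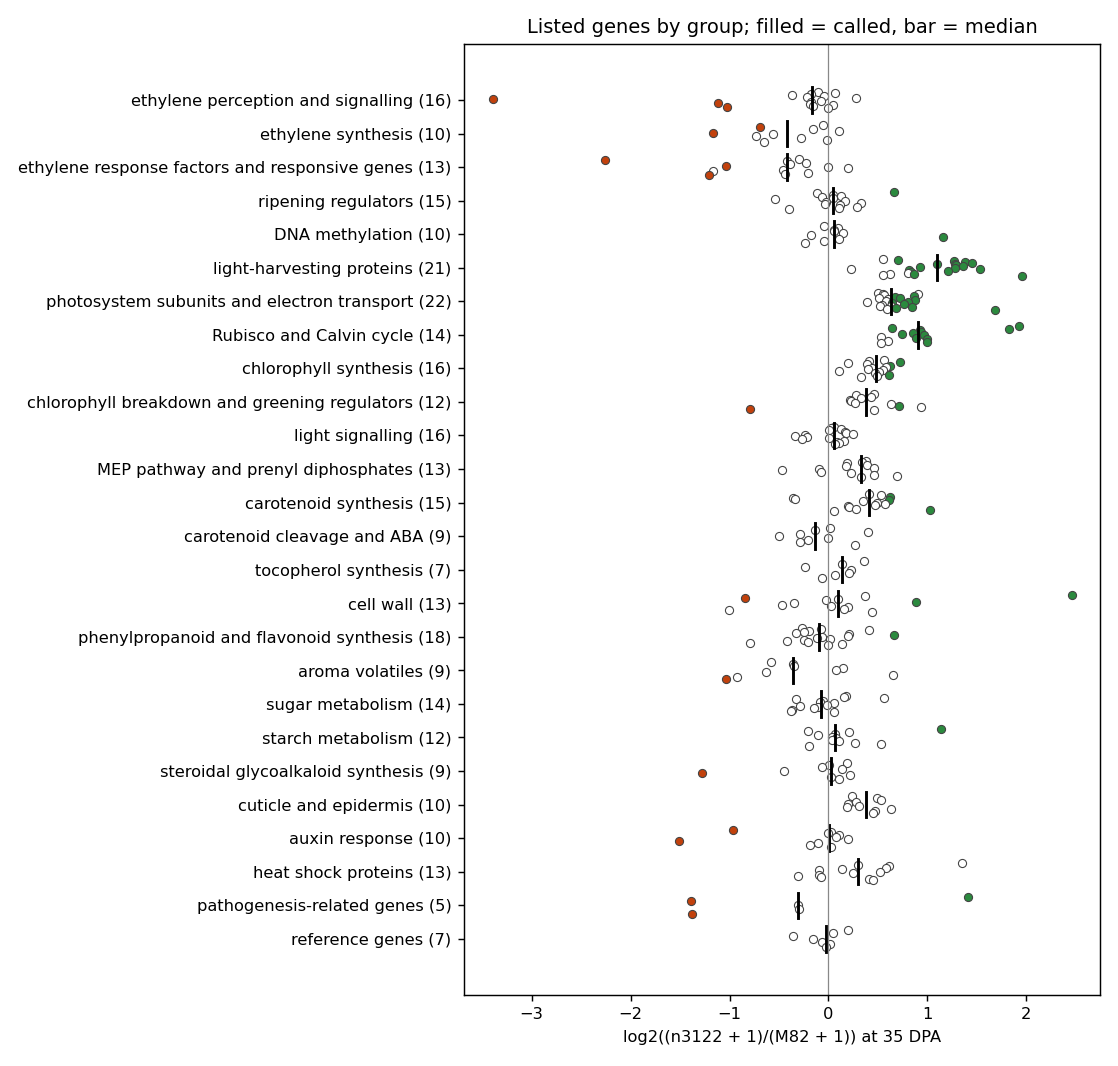
Log2 fold change at 35 DPA of each listed gene of at least 1 FPKM, by list, with the number of genes in brackets; filled points are called (green higher, orange lower in n3122), open points are not, and the black bar is the list's median. The photosynthesis lists lie wholly to the right of 0, at medians from 0.48 to 1.10, while the 3 ethylene lists have medians from -0.42 to -0.17.

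Carotenoid synthesis held 3 called genes of 15, all higher, where 1.94% of all tested genes were called higher. Its median log2 fold change was 0.41, beside -0.01 over all genes. LCYE (Solyc12g008980), the cyclase that leads to lutein, the chief yellow carotenoid of chloroplasts, had 9.55 FPKM in M82 and 20.5 in n3122. ZEP, which makes violaxanthin, had 79.8 and 123 FPKM, and PDS, the phytoene desaturase, 56.2 and 86.2. PSY1 (Solyc03g031860), the fruit phytoene synthase that feeds the red pigment lycopene, had 143 and 113 FPKM, and PSY2, the synthase of green tissue, 22.5 and 32.9; neither was called. The supply of precursors, in the MEP pathway of the plastid, had a median of 0.33 over 13 genes with none called, and the abundant HDR, its last enzyme, had 331 and 434 FPKM. None of 9 genes of carotenoid cleavage and abscisic acid was called (median -0.13), including NCED1, the first committed enzyme of abscisic acid synthesis, at 76.2 and 53.5 FPKM. None of 7 tocopherol genes was called (median 0.14).

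Among the known regulators of ripening, of 15 above 1 FPKM, TAG1 (Solyc02g071730), an AGAMOUS-type MADS-box factor, was the only gene called, at 43.2 FPKM in wild-type and 68.8 in mutant fruit. The NAC factor NOR had 19.3 and 23.84 FPKM, the SPL-type factor CNR 38 and 35.1, and the median log2 fold change was 0.05, with the uncalled genes between -0.54 and 0.33. Among 10 genes that add or remove DNA methylation, DML1 (Solyc09g009080), a demethylase, was called higher, with 8.43 and 19.98 FPKM. DML2, the demethylase known for its part in tomato ripening, had 36.4 and 39.3 FPKM, and the list's median was 0.06. Over all tested genes 1.94% were called higher, and 1 call in each of 2 lists this small cannot show a different share.

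Cell-wall genes were split, with 2 of 13 called higher and 1 lower, where 1.94% and 1.35% of all tested genes were. The list's median was 0.10. The called genes encode an endo-mannanase, MAN4 (Solyc01g008710), at 0.308 FPKM in M82 against 6.19 in n3122, and the beta-galactosidases TBG3 (Solyc03g121540), with 29.4 and 55.1, and TBG6 (Solyc02g084720), with 81.8 and 45.3. TBG6 and TBG3 thus moved in opposite directions. Pectin methylesterase PE1, the most abundant of the list, had 1962 and 1998 FPKM and was not called. Neither EXP1, the expansin of softening fruit, nor the pectate lyase PL was called, and both stood under 4 FPKM.

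The lists of phenylpropanoid and flavonoid, volatile, sugar, starch and glycoalkaloid genes had no more than 1 called gene each. Over all tested genes 3.28% were called, and lists this small cannot show whether their share was lower or higher. In phenylpropanoid and flavonoid synthesis, 1 of 18 genes was called, the chalcone synthase CHS2 (Solyc05g053550), at 31.7 FPKM in M82 against 50.6 in n3122, and the median was -0.10; its paralog CHS1 had 3.37 and 1.52 FPKM and was not called. Of 9 volatile genes, AADC1A (Solyc08g068680), an amino acid decarboxylase, was called lower, with 3.99 and 1.43 FPKM, and the median was -0.36. None of 14 genes of sugar metabolism was called (median -0.07), the vacuolar invertase TIV1 having 303 and 448 FPKM. Of 12 starch genes, AGPL3 (Solyc01g079790), a large subunit of the enzyme that makes ADP-glucose, was called higher, with 4.78 and 11.7 FPKM (list median 0.07). Of 9 steroidal glycoalkaloid genes, GAME18 (Solyc07g043500), a glycosyltransferase of that pathway, was called lower, with 3.31 and 0.781 FPKM (list median 0.03).

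The cuticle list, which marks the epidermis, had all 10 genes above 0 and none called, with a median log2 fold change of 0.38. Its summed FPKM was 729 in M82 and 1019 in n3122, and its most abundant gene, the cutin synthase CD1, had 289 and 447 FPKM and its q-value was 0.0652 in the authors' deposited table. These epidermal genes lay on the same side of 0 as the photosynthesis lists, and their part in that difference was not tested. The 7 reference genes, used in tomato to normalise measurements, had a median of -0.02 with none called and a range from -0.36 for GAPDH to 0.20 for ACT.

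Auxin response gave 2 called genes of 10, both lower, around a list median of 0.01, where 1.35% of all tested genes were called lower. IAA3 (Solyc09g065850), a repressor of auxin response, had 52.4 FPKM in M82 and 17.7 in n3122 (-1.51 on the log2 scale), and GH3-2 (Solyc01g107390), which conjugates auxin to amino acids, 6.28 and 2.72 (-0.97). ARF4, an auxin response factor, had 101 and 88.5 FPKM and was not called. Of 5 pathogenesis-related genes above 1 FPKM, 3 were called, 1 higher and 2 lower, where 3.28% of all tested genes were called. The basic chitinase CHI9 (Solyc10g055810) had 93.5 and 35.3 FPKM and the osmotin-type PR-5 (Solyc08g080640) 53.3 and 19.8, whereas the acidic chitinase CHI3 (Solyc02g082920) had 35.0 in M82 and 94.5 in n3122. None of 13 heat shock genes was called (median 0.30). HSP21, a small heat shock protein of the plastid, had 14.7 and 39.1 FPKM, but its q-value was 0.436 in the authors' deposited table.

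The genes called at 35 DPA were then followed in the tables of 47 and 54 DPA, which share no library with that of 35 DPA. Of the 347 genes called higher at 35 DPA and also tested at 47 DPA, 191 (55.0%) were called higher at 47 DPA, where 13.8% of all genes tested at both ages were. They made up 7.84% of the higher calls at 47 DPA. At 54 DPA it was 221 of 338 (65.4%), beside 18.6% of all genes, and 6.78% of that age's higher calls. The 4 photosynthesis lists had 46 genes called higher and none lower at 47 DPA, and 56 and none at 54 DPA, of the same 73.

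The genes called lower at 35 DPA were found on both sides later. Of 242 tested at 47 DPA, 42 (17.36%) were called lower, beside 9.4% of all genes, and 63 (26.0%) were called higher. At 54 DPA, 111 of 240 (46.25%) were called lower, beside 10.8% of all genes, and 57 (23.75%) higher. The median log2 fold change of these genes was 0.21 at 47 DPA and -0.45 at 54 DPA, so the direction of the group as a whole differed between the later ages. Genes lower at all 3 ages numbered 35 and genes higher at all 3 numbered 162.

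**Figure D4:**
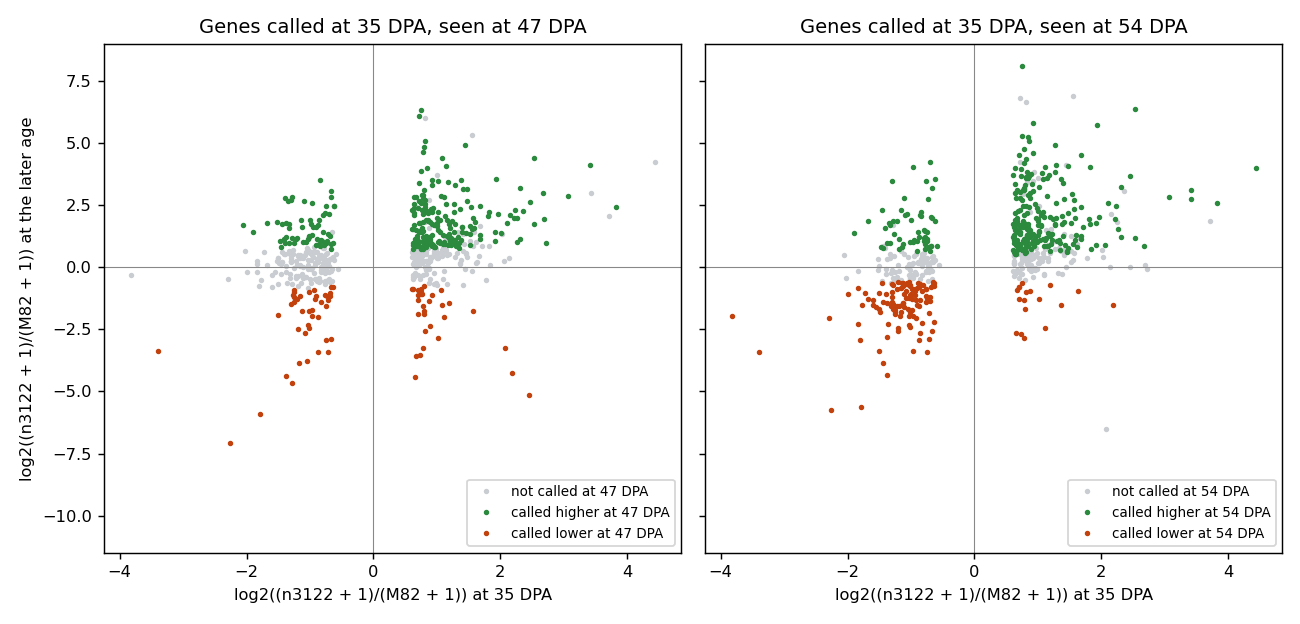
Each point is a gene called at 35 DPA, with its log2 fold change at 35 DPA on the x axis and at 47 DPA (left) or 54 DPA (right) on the y axis, coloured by its call at the later age; a gene listed at 0 in n3122 at 35 DPA and at 22505 FPKM in M82 lies outside the axes. Of the genes higher at 35 DPA and tested later, 292 of 347 and 297 of 338 lie above 0, whereas those lower at 35 DPA fall on both sides.

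EIN2 had nearly the same fold change at every age, -3.39, -3.36 and -3.42 at 35, 47 and 54 DPA. EBF1, ETR6, E4, IAA3, GH3-2 and PR-5 were also called lower at all 3 ages, and E4 had -2.26, -7.07 and -5.73. DML1 was called higher at all 3, with 1.15, 1.91 and 1.40. FBA1 had 1.93, 3.54 and 5.75, as its level in M82 was 6.11 FPKM at 47 DPA and 0.784 at 54 DPA, against 82.01 and 94.9 in n3122.

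Other listed genes were called in opposite directions at different ages. SGR1 was higher in n3122 at 35 DPA and lower at 47 and 54 DPA, with log2 fold changes of 0.71, -1.87 and -1.27, and CHS2 likewise with 0.66, -4.43 and -2.66. PDS and MAN4, higher at 35 DPA, were called lower at 47 DPA, and MAN4 had 1135 FPKM in M82 and 31.5 in n3122 at that age. TBG6 was lower at 35 DPA and higher at 47 and 54 DPA, with -0.84, 0.87 and 2.22. ACO5 and ACO6 were lower at 35 DPA and higher at 54 DPA, ACO6 with -0.69 and 2.02. Over all genes called at 35 DPA, 16 were higher then and lower at both later ages, and 41 lower then and higher at both. Differences between ages were not tested.

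**Figure D5:**
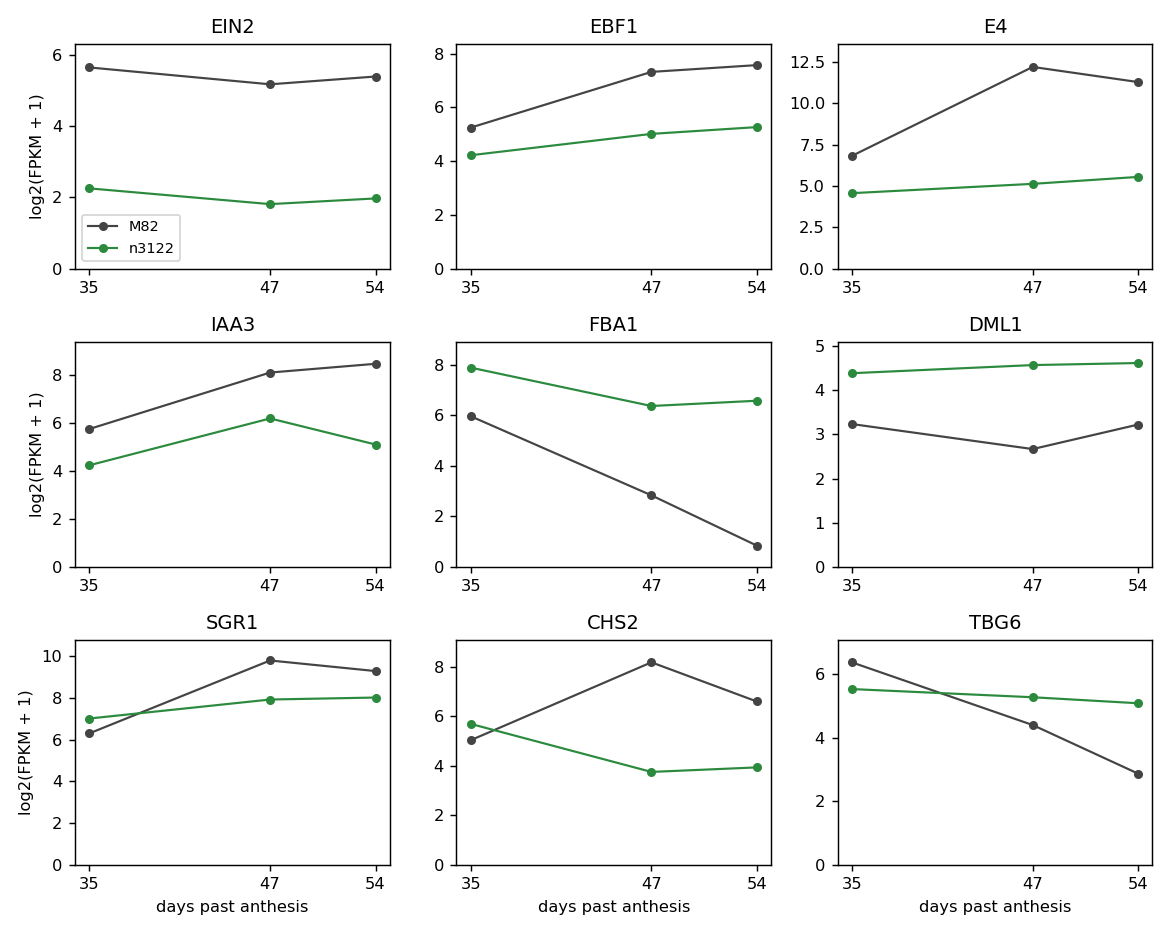
Level of 9 listed genes as log2(FPKM + 1) against fruit age in days past anthesis, with M82 in dark grey and n3122 in green; each point is the authors' single value for a group, from tables scaled separately by age. EIN2 keeps its distance at every age, EBF1, E4 and IAA3 stay lower in n3122, FBA1 and DML1 stay higher, and the lines of SGR1, CHS2 and TBG6 cross between 35 and 47 DPA.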

How the data were processed

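Per the labels' protocols, pericarp RNA was isolated with a plant RNA kit and sequenced as Illumina TruSeq libraries. CASAVA, TopHat2 2.0 and Cufflinks were used, per the submitters' processing notes; the genome build was not given in the sources used here, nor was the annotation. Per the file headers, each deposited table holds, for a pair of groups, p-values and q-values, a test statistic, and an FPKM per gene and group. The latter is the authors' value for both libraries together. The test statistic, a score the authors deposited, is 0 with a p-value of 1 where a gene was not tested, and served only to find such genes. The q-values equalled the Benjamini-Hochberg adjustment of the deposited p-values, whose floor of 5e-05 was shared by 285 genes. No label says whether libraries came from separate plants, so these p-values may measure technical spread only. The files give no counts, so depth is unknown, and no value per library, so no test was run here.

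From these values the log2 fold change was computed after adding a pseudocount of 1 FPKM, so that changes of low genes are understated, for genes of at least 1 FPKM in either group (Python 3.11.15, pandas 2.3.3, numpy 2.4.6). The functions were tested on simulated data. The members and gene lists were chosen with earlier results of these data known. Any list member may be named beside its list's count, and outside the lists the 2 called genes with the highest and the 2 with the lowest fold change and the most abundant gene of each group. The files pair no names with identifiers, and none of the identifiers is in the reference table (assembly SLM_r2.1), so names come from general knowledge, checked by chromosome and by place within 5% of the chromosome's genes. Of 379 listed genes, 216 were held by symbol or synonym, 43 by another name, 106 had a name that table lacks and 14 lay elsewhere and were left out. Of those called, the names CAB1E, CAB1G, CAB1H, PSBW, PSAH2, PSAL, PSAN, ATPC, FNR1, RCA, RCA2, PRK, GAPA, GAPB, CHLH, CHLM and CRD1 were not checked in this way. A planned search of promoters for motifs was not run.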

Additional observations from a re-analysis of the deposited data

How the results depend on the processing

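At a q-value threshold of 0.01, 337 genes were called, 198 higher and 139 lower, and with a minimum absolute log2 fold change of 1, 288 were called, 156 higher and 132 lower; the order, more higher than lower, held in both. The numbers of genes past 1 on the log2 scale, 336 above and 315 below, depended on how low values were treated: 541 and 507 with a pseudocount of 0.1 FPKM, 132 and 101 with 5 FPKM, and 215 and 208 with a minimum of 5 FPKM. With genes held by the reference table only, which leaves fewer genes, 4 photosystem genes and 6 Calvin cycle genes were called higher, and at a q-value of 0.01 these numbers were 5 and 7, in place of 10 and 11. The 16 antenna genes became 13 under either setting, and the 3 ethylene signalling genes stayed 3. A pseudocount cannot change the direction of a gene, so the 69 called genes recomputed with other pseudocounts kept theirs by construction. Small counts were fragile. At a q-value of 0.01, the genes called higher fell from 3 to 0 in chlorophyll synthesis, from 3 to 1 in carotenoid synthesis, from 2 to 1 in the cell wall, and from 1 to 0 among ripening regulators, flavonoid genes and chlorophyll breakdown. Those called lower fell from 2 to 1 in ethylene synthesis and from 1 to 0 among volatile and glycoalkaloid genes. With genes held by the reference table only, no gene of chlorophyll synthesis was called and no gene of chlorophyll breakdown was called lower. The antenna median ran from 0.84 to 1.25 over pseudocounts. The shares of genes called the same way at 47 and 54 DPA kept within 1.5 times their value at a q-value of 0.01 and with a minimum fold change. With 1 FPKM per group, no replicate could be left out. No paired analysis was possible because the files give no values per library. Since depth is unknown and calls start at 0.56 on the log2 scale, a gene that was not called is not shown to be equal between genotypes.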

Other observations

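Some called genes lay next to each other. Among genes of at least 1 FPKM, 46 pairs of neighbours by identifier were both called, 41 of them in the same direction, and 7 of these 41 pairs consisted of listed genes; 72 of the 600 called genes had such a neighbour. There were 6 runs of 3 or more neighbours called the same way. Besides the antenna genes of chromosomes 2 and 3, a run of 4 genes on chromosome 10 was higher in n3122, with log2 fold changes from 0.72 to 1.68, and a run of 3 on chromosome 1 was higher, from 0.89 to 1.58. Runs of 3 genes on chromosomes 3 and 4 were lower, from -1.29 to -1.01 and from -1.73 to -0.93. Neighbours can be copies of each other that share reads. Of all tested genes 3.28% were called, and whether neighbours were called together more often than this share gives was not tested.

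The called share was similar along the genome. It ran from 2.64% of tested genes on chromosome 11 to 4.38% on chromosome 8, and chromosome 9, which carries EIN2, had 3.06%. Chromosome 4 had more lower than higher calls, 29 against 22, and each of the other numbered chromosomes had more higher calls.

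In 14 genes a value of 0 in a genotype stood against at least 100 FPKM in its counterpart; 9 were at 0 in M82 and 5 in n3122. Of the 14, 4 were tested and 1 was called.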
